A study of Mus musculus with 3 samples.

Results

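The 31 genes described here cover the making, the control and the movement of sterols: 18 encode enzymes of cholesterol synthesis, 5 encode regulators of that pathway, and 8 take part in sterol transport, storage or efflux. They were chosen by name as members of the pathway, with earlier results of these data known. They come from the 21438 genes that have a row in any of the 4 count tables, and all 31 have a row in each table. Msmo1 is written Sc4mol in the files. The data are Drop-seq counts, a droplet method that tags RNA by cell and counts molecules by their unique molecular identifiers (UMIs), from sciatic nerves of adult wild-type mice digested with collagenase and trypsin. There are 3 libraries, 1 for each group. The first injured library is distal sciatic nerve of CD1 mice, collected 9 days after the nerve was resected and cleared with myelin removal beads (beads library). The second injured library is distal nerve at the same time from CD1 and C57BL/6 mice, sorted by FACS (FACS library); its sorting gate is not stated in the sources used here. The uninjured library is sciatic nerve of CD1 mice cleared with beads, of which only the cells that the authors predicted to be mesenchymal were used here, so Schwann cells and macrophages of uninjured nerve could not be compared. The number of animals per library is not given in the sources used here.

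Cholesterol is built from acetyl-CoA through mevalonate and isoprenoids to squalene, which is closed to lanosterol and then trimmed to cholesterol. When sterol is scarce in the endoplasmic reticulum, SCAP escorts SREBP2, the product of Srebf2, out of it to be activated, and SREBP2 then switches on most genes of the pathway; INSIG proteins hold SCAP back when sterol is ample. The oxysterol receptor LXR, whose alpha form is encoded by Nr1h3, raises the efflux pumps ABCA1 and ABCG1. In peripheral nerve, Schwann cells make cholesterol for myelin, and after injury macrophages that have taken up myelin debris release its cholesterol on lipoprotein particles that carry apolipoprotein E.

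Promoter sequences are shown for 4 of the genes whose levels differed together below: Hmgcs1, Sc5d, Insig1 and Srebf2. The rule took enzymes and regulators that were lower after injury, by size of ratio, where RefSeq has a promoter. Sc4mol and Cyp51 met the same rule and are not printed. They are from RefSeq on GRCm38.p6, 5′ to 3′, restricted to bases that lie before the first annotated exon. Capitals mark matches to CCAAT on either strand (ATTGG on the printed strand), the letters bound by the factor NF-Y, and to TCACNCCAC, a core form of the sterol regulatory element. Hmgcs1 is chr13:119690101-119690350 on the plus strand, Sc5d is chr9:42264301-42264550 on the minus strand, Insig1 is chr5:28071162-28071362 on the plus strand, and Srebf2 is chr15:82147019-82147180 on the plus strand.
Hmgcs1: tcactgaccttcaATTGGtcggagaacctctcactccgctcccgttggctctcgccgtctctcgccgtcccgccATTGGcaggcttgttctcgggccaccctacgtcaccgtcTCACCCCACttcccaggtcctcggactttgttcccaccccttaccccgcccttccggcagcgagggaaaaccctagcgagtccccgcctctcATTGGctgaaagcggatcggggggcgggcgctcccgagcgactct
Sc5d: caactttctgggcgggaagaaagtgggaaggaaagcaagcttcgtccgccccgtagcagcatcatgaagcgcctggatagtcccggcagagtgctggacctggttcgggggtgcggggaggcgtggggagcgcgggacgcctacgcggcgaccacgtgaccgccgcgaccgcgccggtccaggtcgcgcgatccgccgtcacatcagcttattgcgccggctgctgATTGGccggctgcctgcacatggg
Insig1: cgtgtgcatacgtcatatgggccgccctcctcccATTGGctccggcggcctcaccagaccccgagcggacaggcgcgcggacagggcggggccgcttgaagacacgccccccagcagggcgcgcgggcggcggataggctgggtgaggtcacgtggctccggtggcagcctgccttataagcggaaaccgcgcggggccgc
Srebf2: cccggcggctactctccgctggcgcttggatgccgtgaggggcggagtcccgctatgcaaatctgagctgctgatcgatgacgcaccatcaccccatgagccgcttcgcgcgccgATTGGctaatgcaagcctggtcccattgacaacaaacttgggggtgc
In Hmgcs1 the match to TCACNCCAC runs from 137 to 129 bases before the start site, between matches to CCAAT. In Cyp51, not printed, the 201 bases before the first annotated exon held no match. Its CCAAT match lay from 29 to 25 bases before the start site. In Sc4mol only 36 bases lay before the first annotated exon. Of the 31 genes, 25 have a promoter in the RefSeq table, and 250 bases before each start were searched on both strands. CCAAT was found for 14 of the 15 synthesis genes with an entry (93.3%) and for 20 of all 25 (80.0%), beside 33.8% of the 32817 promoters in the table. Some genes have several promoters in the table, 3 each for Dhcr7, Insig2, Srebf1 and Apoe, which gives those genes more chances of a match. TCACNCCAC was found for Hmgcs1 alone, beside 1.05% of all promoters. Only exact matches to these letters were counted, so a variant of the element would be missed. A match is a description of the letters and does not show that a factor binds there.

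Depth was 10859939 UMIs over 4300 barcodes in the beads library (median 1343) and 7122377 UMIs over 2000 barcodes in the FACS library (median 2356.5). Of the authors' mesenchymal tables, the injured one held 1289 injured cells (median 2798 UMIs, all of them barcodes of the beads library) and the uninjured one 880 cells (median 2102.5 UMIs). Levels are given as CPM, the UMIs of a gene in a pool of cells per 1000000 UMIs of that pool; in such a sum, fewer positive cells and less RNA per cell cannot be told apart. A gene was called higher or lower where a pool reached 50 CPM (the floor) and the levels differed by 2-fold or more with an exact 95% interval that left out 1. That interval covers counting error only: with 1 library per group no test of injury is possible, and no p-value is given. Both mesenchymal tables carried UMIs of all 10 mesenchymal markers, at a summed 62754 CPM (injured) and 100250 CPM (uninjured). Their traces of other cells differed: the macrophage list summed to 312 CPM after injury (13 of 13 genes with a UMI) against 25.8 CPM in uninjured nerve (8 of 13, with Adgre1, C1qa, C1qc, Ms4a7 and Fcgr1 at 0), and the Schwann cell list to 87.9 against 322 CPM (10 of 10 in both). Their part in the results was not tested. Cells were clustered without the sterol genes and named by markers.

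In the authors' mesenchymal cells, most enzymes of the pathway were present at lower levels 9 days after injury than in uninjured nerve. Of the 31 genes, 12 were lower and 1 was higher, out of 17 that reached the floor of 50 CPM; over all 3964 genes at the floor, 7.14% were lower and 8.17% higher. The median log2 ratio of these 17 genes was -2.48, against 0.20 over all genes at the floor. The 18 synthesis genes together made up 210 CPM (996 UMIs) after injury against 1196 CPM (2595 UMIs) without it, a log2 ratio of -2.51 (95% interval -2.62 to -2.41). The ratio was below 0 for each of the 18 enzymes, including the 10 too scarce for the floor.

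By step of the pathway, the summed log2 ratio was -2.52 for the 7 enzymes from acetyl-CoA to farnesyl diphosphate, -3.34 for the 3 that make squalene and lanosterol, and -2.29 for the 8 that turn lanosterol into cholesterol. Among the early enzymes, Hmgcs1, which makes HMG-CoA, stood at 32.9 CPM in injured cells (156 UMIs) against 258 CPM in uninjured ones (560 UMIs), a log2 ratio of -2.97 (-3.24 to -2.72). Fdps, which makes farnesyl diphosphate, stood at 10.1 and 110 CPM (-3.45). In the squalene steps, Fdft1 (squalene synthase) stood at 6.95 and 65.9 CPM (-3.25) and Sqle (squalene epoxidase) at 9.27 and 96.4 CPM (-3.38). All 4 of these intervals lay beyond a 4-fold difference. Fdft1 was not called with 3 subclasses at the same weight (-2.85, -4.27 to -1.71), as its level fell under the floor. In the late steps, Sc4mol, which removes methyl groups from carbon 4 of the sterol, differed most of the called genes, with 9.48 CPM (45 UMIs) after injury against 184 CPM (399 UMIs) without it (-4.28, -4.76 to -3.83). Cyp51, the lanosterol demethylase, stood at 18.1 and 101 CPM (-2.48), and Sc5d, a desaturase, at 9.06 and 74.7 CPM (-3.04). Ebp, the sterol isomerase, differed little, at 38.6 and 53.0 CPM (-0.46).

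The 10 scarcer enzymes stayed under 50 CPM in both pools and so could not be called, but each lay on the same side. Acat2, which joins acetyl-CoA units, stood at 15.4 and 24.9 CPM (log2 ratio -0.69), with the smallest difference of the 10. Mvk (10.5 and 26.3 CPM, -1.32) and Pmvk (11.8 and 42.0 CPM, -1.83), which phosphorylate mevalonate, and Mvd (18 and 28 UMIs, -1.77), which decarboxylates the product, came next in the pathway. Idi1, the isomerase after them, gave 2 and 28 UMIs (-4.94, -8.05 to -2.95). Lss, which closes squalene epoxide to lanosterol, gave 11 and 56 UMIs (-3.48). In the late steps Nsdhl (8.22 and 37.8 CPM, -2.20) and Hsd17b7 (9.90 and 38.3 CPM, -1.95), which act with Sc4mol in removing the methyl groups, lay lower by similar amounts. The reductases Tm7sf2 (16 and 24 UMIs, -1.71) and Dhcr7 (46 and 45 UMIs, -1.10) differed less.

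The regulators did not differ as 1 block. Insig1 stood at 7.16 CPM after injury against 106 CPM without it (log2 ratio -3.89), while its relative Insig2 stood at 103 and 86.7 CPM (0.25). Srebf2 stood at 16.0 and 64.1 CPM (log2 interval -2.42 to -1.59) and Srebf1, which encodes the SREBP1 forms best known for fatty acid synthesis, at 21.7 and 50.3 CPM (-1.21); both were called lower. Srebf1 was no longer called without cells holding 3 or more UMIs of other cell types' markers (-0.73, -1.56 to 0.08), nor without cells holding UMIs of 2 or more cell cycle genes (-1.27). Scap was nearly level, at 37.3 and 36.0 CPM (0.05, -0.34 to 0.46).

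The transport genes split by role. Stard4, a carrier that moves cholesterol through the cytosol, was lower, with 19 UMIs after injury against 119 UMIs, or 54.9 CPM, without it (log2 ratio -3.78). Abca1, the pump that loads cholesterol onto apolipoprotein A-I, was the 1 gene called higher, at 131 and 32.7 CPM (2.01, 1.65 to 2.38). Without cells holding 3 or more UMIs of other cell types' markers, Stard4 (-3.32, -5.28 to -1.82) was no longer called, as its level fell under the floor. Abca1 remained called there, at 1.40 (0.81 to 2.02). Abcg1, its partner in efflux, was scarce, with 66 UMIs after injury and 5 without it (13.9 and 2.31 CPM, 2.59), and stayed under the floor. The lysosomal exporters were close to level: Npc2 stood at 517 and 511 CPM (0.02) and Npc1 at 25.7 and 31.8 CPM (-0.31). Soat1, which esterifies cholesterol for storage, stood at 70.6 and 40.1 CPM (0.82), and Nr1h3 at 16.9 and 36.9 CPM (-1.13), neither past the rule. Apoe was called lower, at 1050 and 2430 CPM (-1.21), but not without cells holding other markers (-0.97) or with 3 subclasses at the same weight (-0.32); its level in cells that should lack it is given with the phagocytes.

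Of the mesenchymal subclasses, endoneurial-like cells had the ratios farthest from 0. When both tables were clustered together, endoneurial-like cells numbered 233 injured and 426 uninjured, epineurial-like cells 196 and 382, and perineurial-like cells 68 and 66; these are the fibroblast-like cells inside the fascicle, around the nerve, and of the sheath of each fascicle. A further 425 injured cells and 1 uninjured cell were named differentiating-like, and 367 injured and 5 uninjured cells stayed unnamed. Injured and uninjured endoneurial-like cells sat in different clusters: 230 of the injured cells formed one led by Wif1 and Ccl9 with no uninjured cell in it, and all 426 uninjured cells, with 3 injured ones, formed another led by Angptl7 and Enpp2. Sc4mol, Hmgcs1 and Insig1 were among the 10 leading genes of that second cluster although they had been left out of the clustering. The epineurial-like and perineurial-like clusters held cells of both libraries.

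Within endoneurial-like cells, 15 of the 31 genes were lower after injury and 1 was higher, out of 19 at the floor (9.40% of 3725 genes were lower and 10.8% higher). All 11 synthesis genes at the floor were lower. Summed synthesis stood at 152 CPM (134 to 172) after injury against 1954 CPM (1873 to 2038) without it, a 12.9-fold difference (11.3 to 14.7). Sc4mol gave 14 UMIs in 233 injured cells against 352 in 426 uninjured ones (8.69 and 317 CPM, log2 ratio -5.19). Hmgcs1 stood at 16.1 and 433 CPM (-4.75), Fdps at 6.21 and 187 CPM (-4.91) and Cyp51 at 7.45 and 168 CPM (-4.50). Enzymes of early, middle and late steps were low alike after injury. Idi1, which isomerises isopentenyl diphosphate, gave 0 UMIs after injury and 28 without it, at least 13.5-fold lower when 3 UMIs stand for the empty pool. Insig1, with 5 and 197 UMIs, had the lowest ratio of the called genes (3.10 and 177 CPM, -5.84, -7.47 to -4.59). Srebf2 stood at 9.31 and 81.0 CPM (-3.12) and Stard4 at 2.48 and 75.6 CPM (-4.93). Insig2 went the other way without passing the rule, at 161 and 99.9 CPM (0.69, 0.37 to 1.03). The remaining called genes were Pmvk (9.93 and 61.2 CPM), Fdft1 (7.45 and 111 CPM), Sqle (12.4 and 170 CPM), Nsdhl (8.69 and 63.0 CPM), Hsd17b7 (11.8 and 58.5 CPM), Ebp (26.7 and 54.9 CPM), Sc5d (5.59 and 112 CPM) and Apoe (701 and 3053 CPM). Ebp was not called with totals that leave out Apod (-0.95). Several sterol genes were level: Scap (27.9 and 28.8 CPM), Npc1 (24.2 and 28.8 CPM) and Nr1h3 (38.5 and 49.5 CPM) had intervals that spanned no difference. The Schwann cell list, a trace of cells that also make cholesterol, summed to 62.7 CPM after injury (7 of 10 genes with a UMI, Gfra3, Mbp and Foxd3 at 0) and 356 CPM without it (10 of 10). The part of Schwann cell RNA in these levels was not tested, as uninjured Schwann cells were not analysed here.

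Abca1 showed the reverse pattern in the same cells. It gave 327 UMIs in injured endoneurial-like cells and 5 in uninjured ones (203 and 4.50 CPM, log2 ratio 5.50, 4.26 to 7.13). After each cell was thinned to 1000 UMIs, 17.9% of 229 injured cells and 0 of 382 uninjured cells held an Abca1 UMI, and the latter allows a share of up to 0.785% by the rule of 3 counts and 0.961% by the exact 95% interval. Unthinned shares were 65.7% and 0.939%, at median depths of 6554 and 2182 UMIs. As a measure of free RNA, Abca1 stood at 22.5 CPM in T or NK-like cells and 60.1 CPM in B-like cells of the same beads library, with a UMI in 1.27% of 79 and 6.15% of 130 thinned cells (median depths 867.5 and 763 UMIs). The macrophage list summed to 233 CPM after injury (12 of 13 genes with a UMI, Adgre1 at 0) against 13.5 CPM (6 of 13, with Csf1r, Adgre1, C1qa, C1qb, C1qc, Ms4a7 and Fcgr1 at 0). The log2 ratio of Abca1 was 5.32 (3.34 to 8.42) when cells with 3 or more UMIs of other cell types' markers were left out, which kept 33 of 233 injured and 187 of 426 uninjured cells. In those cells 10 of the 16 called genes had a ratio, and the 10 remained called. The limit of 3 UMIs is a count and not a share of a cell's UMIs, so it drops deep cells more readily than shallow ones. The part of free RNA in these values was not tested. Soat1 stood at 91.2 and 59.4 CPM (0.62) and Npc2 at 460 and 389 CPM (0.24), and Abcg1 gave 28 and 2 UMIs (3.27, 1.28 to 6.39).

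In epineurial-like cells the pathway was low in both libraries, and 0 of the 31 genes were called in either direction, with 6 at the floor (2.05% of 3854 genes were lower and 4.39% higher). Summed synthesis stood at 243 CPM after injury against 368 CPM, a log2 ratio of -0.60 (-0.94 to -0.27), and 13 of the 18 enzymes had a ratio below 0. By step, the 3 squalene and lanosterol genes differed most, with 4 and 43 UMIs (log2 ratio -2.25, -4.18 to -0.79). Hmgcs1 stood at 45.0 and 71.7 CPM (-0.67), Insig2 at 110 and 66.2 CPM (0.73) and Abca1 at 97.5 and 65.1 CPM (0.58, -0.04 to 1.19). Perineurial-like cells lay in between, with 265 and 629 CPM (-1.25, -1.77 to -0.74), on 52 and 87 UMIs. Of their 31 genes, 6 were lower and 1 was higher out of 14 at the floor (7.44% of 4906 genes were lower and 5.46% higher). The lower ones were Hmgcs1, Fdps, Sc4mol, Srebf1, Srebf2 and Stard4, each on 18 or fewer UMIs in either pool, and 0 were called lower when cells with 3 or more UMIs of other markers were left out, which kept 22 cells of each library. Hmgcs1 stood at 25.4 and 101 CPM (-1.99), Srebf2 at 25.4 and 108 CPM (-2.09) and Srebf1 at 45.8 and 123 CPM (-1.42), while Sc4mol rested on 1 and 18 UMIs. Abca1 was the higher one, at 224 and 50.6 CPM (2.15). The difference between subclasses in the size of the injury ratio was not tested.

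**Figure D1:**
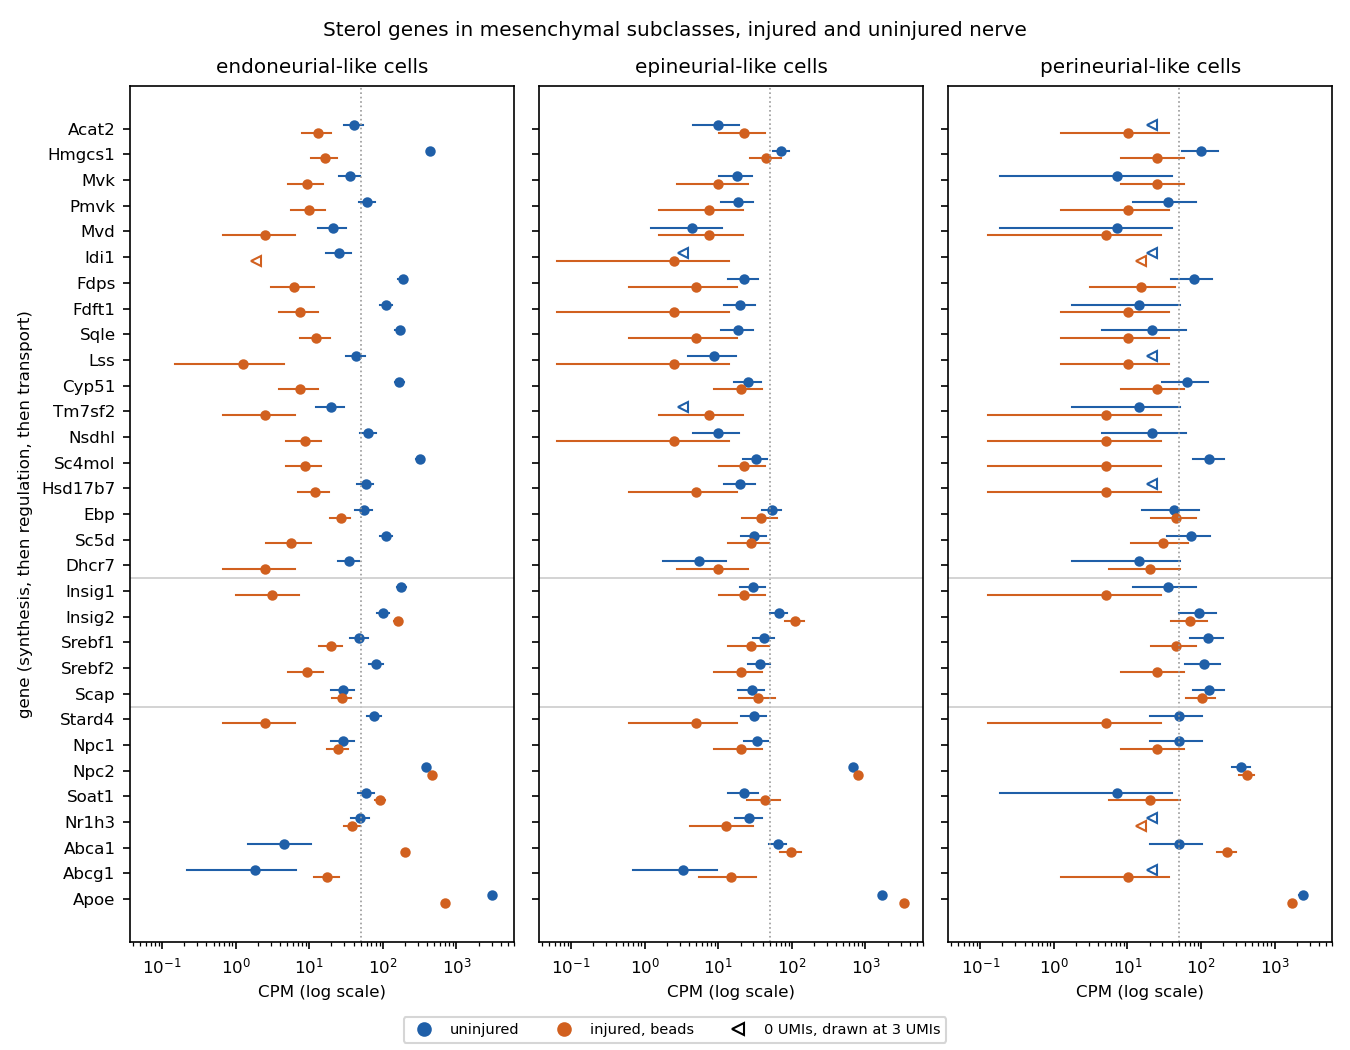
Each panel plots the CPM (log axis) of the 31 genes in 1 mesenchymal subclass, blue for uninjured and orange for injured cells of the beads library; lines are exact 95% Poisson intervals, open triangles mark a gene with 0 UMIs drawn at the level of 3 UMIs, and the dotted line is the floor of 50 CPM. In endoneurial-like cells the synthesis genes, Insig1, Srebf2 and Stard4 lie far lower after injury and Abca1 far higher (203 against 4.50 CPM), while in epineurial-like cells 0 genes passed the rule and many points rest on few UMIs.

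Among the authors' uninjured mesenchymal cells, endoneurial-like cells held most of the pathway's RNA, 2172 of the 2595 synthesis UMIs. They made up 426 of the 880 cells. Compared with epineurial-like cells of the same library, 14 of the 31 genes were higher and 1 was lower out of 19 at the floor (9.74% of 3707 genes were higher and 12.3% lower). The 14 were 10 synthesis genes, Insig1, Srebf2, Stard4 and Soat1. Sc4mol stood at 317 CPM in endoneurial-like and 32.0 CPM in epineurial-like cells (log2 ratio 3.31), Sqle at 170 and 18.8 CPM (3.18), and Hmgcs1 at 433 and 71.7 CPM (2.59). Summed synthesis stood at 1954 and 368 CPM. Soat1 stood at 59.4 and 22.1 CPM (1.43). Abca1 was the lower gene, at 4.50 CPM in endoneurial-like and 65.1 CPM in epineurial-like cells (-3.85). Ebp (54.9 and 53.0 CPM) and Scap (28.8 and 28.7 CPM) were level. In perineurial-like cells 7 genes were higher than in epineurial-like cells and 0 lower, out of 15 at the floor (Fdps, Cyp51, Sc4mol, Sc5d, Srebf1, Srebf2 and Scap), with 23.9% of 4726 genes higher and 10.6% lower. Scap there stood at 130 CPM against 28.7 CPM.

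The presence of the pathway was broad among uninjured endoneurial-like cells. After thinning to 1000 UMIs, 73.0% of 382 cells (68.3 to 77.4, exact binomial) held at least 1 UMI of a synthesis gene, compared with 26.6% of 323 uninjured epineurial-like, 43.1% of 51 uninjured perineurial-like and 16.2% of 229 injured endoneurial-like cells. The unthinned shares were 85.5%, 47.6%, 53.0% and 60.1%. Thinning left out 44, 59, 15 and 4 shallower cells. RNA of 18 genes that respond to stress and dissociation was also higher in uninjured endoneurial-like cells, at 47682 CPM against 12884 CPM in uninjured epineurial-like and 16186 CPM in injured endoneurial-like cells. When uninjured endoneurial-like cells were put into 3 groups of 142 by the share of stress RNA, summed synthesis stood at 1897 CPM in the group with the least (13488 CPM of stress RNA), 1998 CPM in the next and 1951 CPM in the group with the most (82406 CPM). The 3 injured groups stood at 136, 156 and 163 CPM. In uninjured epineurial-like cells put into 3 groups in the same way, synthesis stood at 299 CPM (239 to 370) with the least stress RNA (2182 CPM), 318 CPM in the next and 473 CPM (402 to 554) with the most (27319 CPM), so it was higher with more stress RNA there. The part of stress in these levels was not tested.

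After injury, endoneurial-like cells no longer led. Compared with injured epineurial-like cells, 0 of the synthesis genes reached the floor, summed synthesis stood at 152 and 243 CPM, and 3 of 5 genes at the floor were called (24.7% of 4165 genes were called in either direction). Soat1 (91.2 and 42.5 CPM) and Abca1 (203 and 97.5 CPM) were higher in endoneurial-like cells and Apoe (701 and 3319 CPM) was lower. Differentiating-like cells carried the cell cycle genes (744 CPM against 32.9 CPM), which led a cluster of 43 of these 425 cells. All differentiating-like cells together stood at 250 CPM of synthesis. Compared with injured endoneurial-like cells, 2 of their 31 genes were lower and 0 higher, out of 5 at the floor (7.03% of 4080 genes were lower and 10.7% higher). The lower ones were Insig2 (68.6 and 161 CPM) and Abca1 (79.9 and 203 CPM). Nr1h3 gave 8 UMIs in differentiating-like and 62 in injured endoneurial-like cells (3.63 and 38.5 CPM), under the floor.

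The other injured library gave low values too. It shares the uninjured library with the comparison above, so the values are set side by side. Mesenchymal-like cells of the FACS library (591 cells) held 215 CPM of synthesis, and 10 of the 31 genes were lower and 1 was higher than in uninjured cells, out of 17 at the floor (9.12% of 3990 genes were lower and 12.0% higher). Sc4mol stood at 11.1 CPM in FACS and 9.48 CPM in beads cells, Hmgcs1 at 29.4 and 32.9 CPM, Insig1 at 8.10 and 7.16 CPM, and Abca1 at 85.1 and 131 CPM. Endoneurial-like cells of the FACS library (111 cells) held 142 CPM of synthesis, on 125 UMIs, and 14 genes were lower and 1 was higher than in uninjured endoneurial-like cells, out of 20 at the floor (10.7% of 3735 genes were lower and 12.9% higher). There Abca1 stood at 122 CPM, Sc4mol at 14.8 CPM, and Insig1 gave 2 UMIs and Stard4 gave 1 UMI. The macrophage list there summed to 1009 CPM (13 of 13 genes with a UMI). Srebf1, called lower in the beads library, stood at 33.9 and 50.5 CPM in FACS and uninjured cells and was not called.

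Genes near the pathway differed less uniformly. Of 29 other genes of sterol handling, 11 reached the floor in the authors' mesenchymal cells, where 3 were lower and 0 higher, beside 7.14% and 8.17% of all genes at the floor. In endoneurial-like cells 12 reached it, 4 were lower and 1 was higher, beside 9.40% and 10.8% of all genes. Cyp27a1, a sterol hydroxylase, was among the lower ones in both, and Mylip, an LXR target that degrades lipoprotein receptors, was the higher one. Of 14 fatty acid genes, 8 reached the floor in endoneurial-like cells and 5 were lower and 0 higher, read against the same 9.40% and 10.8%; the 5 were Fasn, Acly, Elovl5, Fads1 and Acsl3. Their median log2 ratio of -1.16 lay nearer 0 than the -3.89 of the synthesis genes at the floor.

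**Figure D2:**
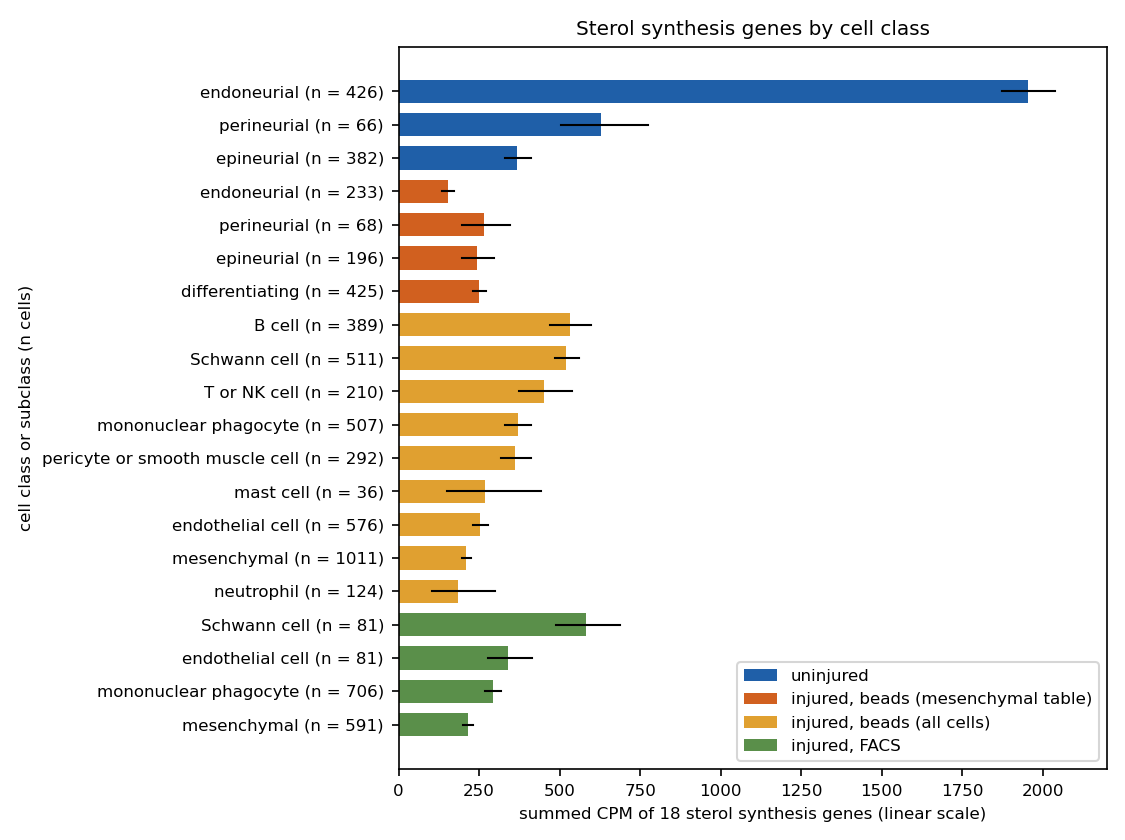
Bars give the summed CPM of the 18 synthesis genes in each cell class or mesenchymal subclass, on a linear axis from 0, with exact 95% Poisson intervals as lines and colours for library and table; n is the number of cells. The bar of uninjured endoneurial-like cells (1954 CPM) is the longest, and Schwann cell-like bars (521 and 581 CPM) exceed mesenchymal-like ones (210 and 215 CPM).

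Among all cells of the injured nerve, Schwann cell-like cells held more of the pathway than mesenchymal-like cells. Summed synthesis stood at 521 CPM (484 to 560) in 511 Schwann cell-like cells and 210 CPM (197 to 224) in 1011 mesenchymal-like cells of the beads library, a log2 ratio of 1.31 (1.17 to 1.45). In the FACS library it stood at 581 CPM (488 to 687) in 81 and 215 CPM (201 to 230) in 591 cells, a ratio of 1.43 (1.16 to 1.70). The ratio was above 0 for each of the 18 enzymes in the beads library, and 3 of the 31 genes were called higher there and 0 lower (Hmgcs1, Sc4mol and Abca1), out of 8 at the floor, with 18.6% of 4849 genes higher and 13.3% lower. Most enzymes lay under the floor. The median log2 ratio over all genes at the floor was also above 0, at 0.40 in the beads and 0.36 in the FACS library. In the FACS library 15 of the 18 enzymes had a ratio above 0 and 2 below, and 3 of the 31 genes were called higher and 0 lower as well (Fdps, Sc4mol and Dhcr7), out of 9, with 21.4% of 4794 genes higher and 13.6% lower. Sc4mol stood at 64.7 and 9.63 CPM in Schwann cell-like and mesenchymal-like cells of the beads library, and at 71.6 and 11.1 CPM in the FACS library.

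B-like cells of the beads library stood at 531 CPM of synthesis (470 to 598), with intervals overlapping those of Schwann cell-like cells, and T or NK-like cells at 451 CPM (374 to 539). Within the B-like cells, a cluster of 67 cells led by Ighg1 and Igj stood at 783 CPM and the other 322 cells at 303 CPM. Sc5d was highest in B-like cells, at 62.1 CPM against 9.41 CPM in mesenchymal-like cells. Cell cycle genes were also high in these classes: the list of 8 summed to 1874 CPM in B-like, 1262 CPM in Schwann cell-like and 1149 CPM in T or NK-like cells of the beads library, against 386 CPM in mesenchymal-like cells. In the FACS library Schwann cell-like cells held 114 CPM of it and mesenchymal-like cells 376 CPM. The part of cell division in these levels was not tested. Phagocyte-like cells (369 CPM), cells resembling pericytes or smooth muscle (362 CPM) and endothelial-like cells (254 CPM) followed. Of the 18 enzymes, 7 were highest in B-like and 7 in Schwann cell-like cells among the 8 beads-library classes of at least 50 cells. Some of these levels were far under the floor, such as Idi1 and Tm7sf2 at 7.76 CPM each in B-like cells. Among the 4 such classes of the FACS library, 11 were highest in Schwann cell-like, 4 in endothelial-like and 3 in phagocyte-like cells. How often each class is highest over all genes was not computed. Stard4 was highest in T or NK-like (75.1 CPM) and endothelial-like cells (73.4 CPM), with 4.38 CPM in mesenchymal-like cells.

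**Figure D3:**
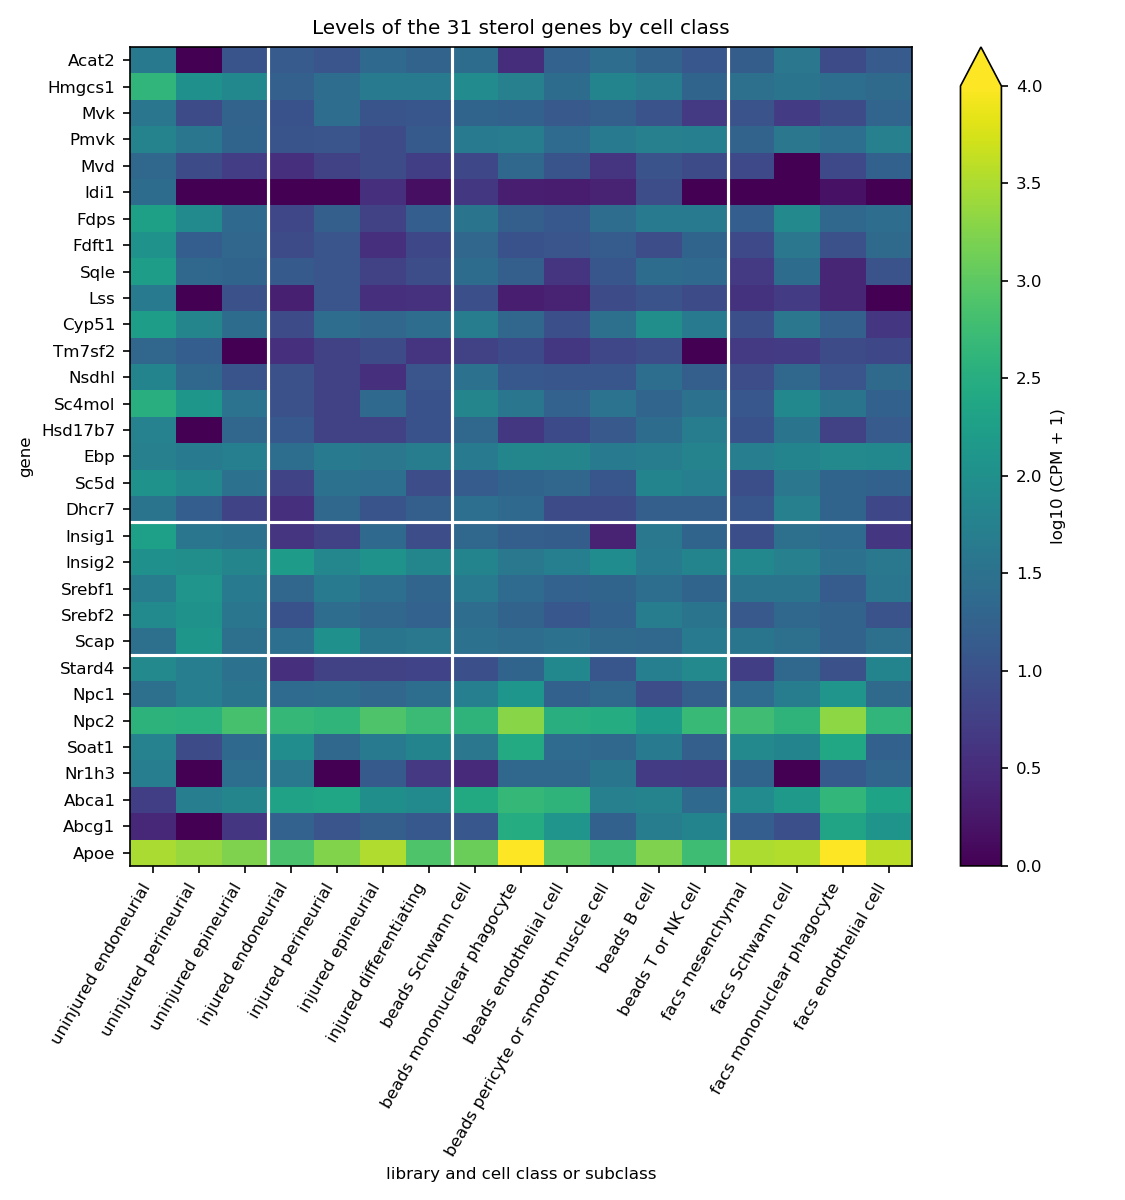
Colour gives log10(CPM + 1) of each of the 31 genes (rows, with white lines between synthesis, regulation and transport) in 17 pools (columns, with white lines between uninjured mesenchymal subclasses, injured subclasses, classes of the beads library and classes of the FACS library). The block of synthesis genes is brightest in the first column, uninjured endoneurial-like cells, and the transport rows Npc2 and Apoe are brightest in mononuclear phagocyte-like cells.

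Phagocyte-like cells carried the genes of lysosomal export, storage and efflux. Compared with mesenchymal-like cells, 6 of the 31 genes were higher and 1 was lower in the beads library, out of 9 at the floor (21.1% of 4672 genes were higher and 23.0% lower). In the FACS library 6 were higher and 1 was lower, out of 8 (19.2% of 4370 genes were higher and 26.4% lower), and they were the same genes. The 6 higher ones were Npc1, Npc2, Soat1, Abca1, Abcg1 and Apoe, and Insig2 was the lower one. The higher ones make up 6 of the 8 transport genes. Of the 18 synthesis genes 0 were called, but only 2 reached the floor in the beads library and 1 in the FACS library. Summed synthesis was higher in phagocyte-like cells of the beads library, at 369 and 210 CPM (log2 ratio 0.81, 0.63 to 0.999). In the FACS library it stood at 293 and 215 CPM (0.45, 0.29 to 0.60). Ratios of single enzymes lay above 0 for 15 and below for 3 (beads), and above for 12 and below for 6 (FACS). Npc2 stood at 1969 CPM in phagocyte-like and 518 CPM in mesenchymal-like cells of the beads library (log2 ratio 1.93) and at 2059 and 583 CPM in the FACS library (1.82). Npc1 stood at 125 and 25.8 CPM (2.27) and at 122 and 23.8 CPM (2.35). Soat1 stood at 276 and 68.5 CPM (2.01) and at 243 and 75.5 CPM (1.69). All 3 gave nearly the same levels in both injured libraries.

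Of the efflux genes, Abca1 stood at 465 CPM in phagocyte-like cells and 134 CPM in mesenchymal-like cells of the beads library (log2 ratio 1.79), and at 448 and 85.1 CPM in the FACS library (2.40). Abcg1 was more restricted, at 304 and 12.9 CPM (4.56) and at 219 and 14.9 CPM (3.87). Endothelial-like cells came next for both pumps in the beads library, with 405 CPM of Abca1 and 119 CPM of Abcg1. Schwann cell-like cells held 270 CPM of Abca1 but 11.3 CPM of Abcg1. Nr1h3 did not follow the pumps, at 21.0 CPM in phagocyte-like and 16.4 CPM in mesenchymal-like cells of the beads library.

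Apoe, the apolipoprotein of the particles that carry sterol between cells, stood at 60026 CPM in phagocyte-like and 900 CPM in mesenchymal-like cells of the beads library (log2 ratio 6.06), and at 85830 and 3175 CPM in the FACS library (4.76). Phagocyte-like clusters differed among themselves. In the beads library Apoe stood at 82832 CPM in a cluster led by Mmp12 and Gpnmb (210 cells) and 25293 CPM in one led by Ccr2 (297 cells), with Abca1 at 606 and 250 CPM. In the FACS library the 3 clusters stood at 43322, 83002 and 108320 CPM. Much of the Apoe seen elsewhere cannot be told apart from free RNA. T or NK-like cells of the beads library stood at 563 CPM, with a UMI in 41.8% of thinned cells, and B-like cells at 1713 CPM, with 55.4%, compared with 86.2% of thinned phagocyte-like cells; median depths were 867.5, 763 and 1078 UMIs, and thinning left 79, 130 and 275 cells. In the FACS library every other named class of at least 50 cells stood between 3175 and 3792 CPM. Injured endoneurial-like cells, at 701 CPM, therefore lay within the range of lymphocyte-like cells, while injured epineurial-like cells, at 3319 CPM, lay above it. The uninjured library has no such reference here, as its other cells were not analysed.

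**Figure D4:**
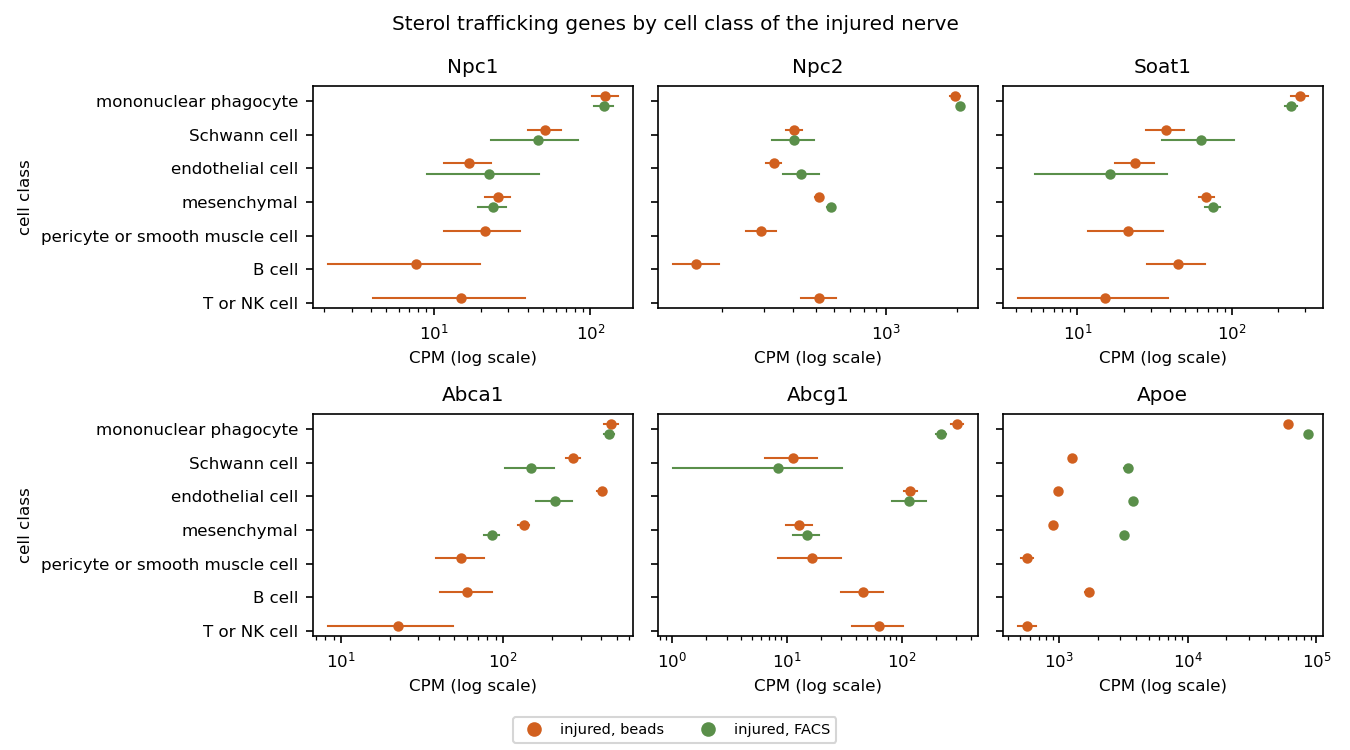
Each panel plots 1 trafficking gene's CPM (log axis, scaled per panel) in the cell classes of the injured nerve, orange for the beads and green for the FACS library, with exact 95% Poisson intervals as lines. Phagocyte-like cells lie highest in all 6 panels in both libraries, and for Apoe the other FACS classes lie together near 3175 to 3792 CPM.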

How the data were processed

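The authors deposited 4 tables of raw UMI counts as gene by cell matrices. The build was mm10, per the submitters' processing notes. No aligner, counter, sequencing date or rule for calling mesenchymal cells was given in the sources used here. The FACS table has no row for 2614 genes of the beads table (0.7% of its UMIs); comparisons with it used shared genes. The members and all gene lists were chosen with earlier results of these data known. Barcodes needed 200 genes. Scrublet called 2 of 4111 and 5 of 1914 cells doublets, too few for it to have worked, so doublets remain. Cells were clustered with scanpy 1.11.5 (2000 variable genes, 30 components, 15 neighbours, Leiden resolution 0.8) without 74 sterol and fatty acid genes. Clusters were named "-like" by a marker score of at least 1 with a margin of 1, and 3 markers. A cluster stayed unnamed if another class had more markers among its 10 leading genes. Shallow clusters that no marker of their own class led stayed unnamed too. In the FACS library, 134 cells led by Car3, Cfd and Inmt scored as mesenchymal but stayed unnamed. The 591 mesenchymal-like cells leave them out. All 31 genes are named; other list genes are named only in part. The beads and FACS libraries share 1 barcode. Counts were compared with exact Poisson and binomial 95% intervals (scipy 1.17.1). The rule was checked on simulated counts with counting error alone, which cannot show how it fares when libraries vary. Alternatives were the floor, the fold, edgeR 4.0.16 and DESeq2 1.42.0 scaling, clustering, cell filters and subclass weight. The filter on markers of other cell types is a count of UMIs, so it drops deep cells more readily than shallow ones.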

Additional observations from a re-analysis of the deposited data

Results flagged for a closer look

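Apoe differed in direction between mesenchymal subclasses. Its log2 ratio of injured over uninjured cells was -2.12 in endoneurial-like, 0.98 in epineurial-like and -0.49 in perineurial-like cells, with levels of 701 and 3053 CPM, 3319 and 1688 CPM, and 1735 and 2436 CPM. Each 95% counting interval lay clear of 0. The difference between subclasses was not tested, since each library was made once. The macrophage list summed to 233, 203 and 249 CPM in these injured subclasses and to 13.5, 24.3 and 43.4 CPM in the uninjured ones, and its part in the Apoe values was not tested.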

How the results depend on the processing

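With no floor of 50 CPM, more genes passed the rule: 22 rather than 12 lower in the authors' mesenchymal cells, 17 rather than 10 in the FACS library, 23 rather than 15 in endoneurial-like and 3 rather than 0 in epineurial-like cells, and 11 rather than 6 higher in phagocyte-like, 14 rather than 3 in Schwann cell-like (beads) and 11 rather than 3 in Schwann cell-like cells (FACS). The summed synthesis log2 ratio of -2.51 became -2.64 with TMM and -2.63 with DESeq2 scaling, which shift all genes by -0.13 and -0.12, and -2.16 with 3 subclasses at the same weight. In an alternative added after the data were seen, perineurial-like calls went from 6 to 0 without cells holding 3 or more UMIs of other markers. The other 59 settings kept each count within 1.5 times or the sum within its interval. Of 239 single-gene values, 232 stayed past the rule, 7 did not and 0 reversed: Fdft1 and Apoe at the same weight, Srebf1, Stard4 and Apoe without cells holding other markers, Srebf1 without cycling cells, and Ebp in endoneurial-like cells with totals that leave out Apod. Fdft1 and Stard4 kept ratios past 2-fold with intervals clear of 0 and fell under the floor. No paired analysis was possible because each group has 1 library. Leaving out a replicate was not possible for the same reason. Sparse genes set the limit of depth: Idi1, Tm7sf2, Lss and Mvd gave few UMIs in most pools.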
